A study of Canis lupus familiaris with 12 samples.

Results

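Human DUX4 was set against luciferase in cultured canine muscle precursor cells, using 6 of the 12 libraries of the series, 3 with each insert. Libraries were chosen by the insert that their labels name, and all 17070 gene rows and 726 repeat rows of their 2 tables of raw counts were taken. Both groups are immortalized canine myoblasts that carry the lentiviral vector pCW57.1, from which an inserted gene is switched on by doxycycline. The insert is human DUX4, titled hDUX4CA with no explanation of CA, or luciferase, the light-producing enzyme that serves as the negative control. Libraries with canine DUXC or its isoform DUXC-ALT in the same vector, 3 with each, were used only for side comparisons. The protocol describes 1 ug/ml doxycycline for 24 h, but the treatment tag of the luciferase libraries reads NO_DOXYCYCLINE and that of the DUX4 libraries reads DOXYCYCLINE. An effect of the insert and an effect of the drug therefore cannot be told apart in this comparison. The labels do not say whether each line was 1 clone or whether the 3 libraries of a group came from separate cultures. The p-values therefore measure the spread between these libraries, which may be technical.

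DUX4 is a transcription factor with a pair of homeodomains that is normally active for a short time in the early human embryo, where it switches on genes of the cleavage stage. In facioscapulohumeral muscular dystrophy it is expressed in skeletal muscle, where it activates the same kind of genes and is toxic. In human cells it also switches on transcripts that start in retrotransposons, the mobile repeats that make up much of a mammalian genome. DUXC is the gene related to DUX4 in dogs, and the comparison asks what the human factor does in canine muscle cells.

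The tables as used here hold counts with no gene symbols, repeat names or positions. Each gene or repeat is therefore cited by its row number, no sequence or function can be given for it, and neither the muscle identity of the cells nor the DUX4 transcript could be checked by name. Levels are given as CPM, the counts of a row scaled to 1000000 gene counts in each library, with no correction for length, so an order of rows is an order of counts. Gene counts per library ran from 15556477 to 20591033. A read count of 0 in all 3 libraries of a group allows a level of up to 0.0531 CPM with luciferase and 0.0603 CPM with DUX4, for counting error alone. Replicates lay close together, with a coefficient of variation beyond sampling noise of 3.12% in luciferase and 1.92% in DUX4 libraries over the tested gene rows. Of 12705 gene rows with at least 100 reads, 41 had the same 6 counts as another row, none of them (0) a row named here.

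DUX4 libraries differed from luciferase libraries at most expressed genes, mostly by small amounts, and the large changes were rises. By edgeR's quasi-likelihood test at a Benjamini-Hochberg adjusted p under 0.05, 5237 of 13629 tested gene rows were higher with DUX4, a share of 38.4%. Another 4881 rows, or 35.8%, were lower. All directions are relative to the gene counts of each library, so a shift shared by all genes would not show. Calls covered 74.2% of tested rows, of which 9694 had groups that did not overlap and 424 had groups that did. Of the called rows, 5420 differed by less than 1.5-fold. The median log2 fold change was 0.75 among raised and -0.43 among lowered rows. The remaining 3441 gene rows held too few reads to be tested, and the tested rows held 99.9% of all gene counts.

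The rises reached much further than the falls. More than 2-fold, 2105 rows were raised, which is 15.4% of tested rows, and 615 were lowered, which is 4.51%. More than 4-fold there were 1077 rises and 102 falls, and more than 16-fold there were 454 rises and 6 falls. More than 64-fold there were 239 rises and 0 falls, and 171 rows rose more than 128-fold. These counts use the estimated fold, and rows with a few luciferase reads have wide errors. With the 95% interval, or the bound for rows with no luciferase read, wholly past the fold, 1686 rises and 342 falls lay past 2-fold. On the same measure 464 rises and 9 falls lay past 8-fold, and 87 rises lay past 64-fold.

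**Figure D1:**
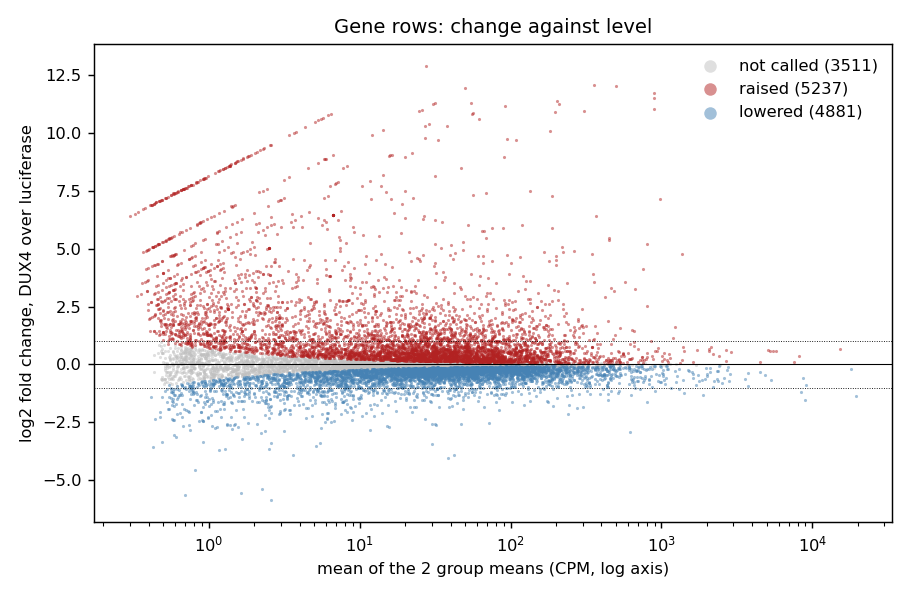
Each point is 1 of 13629 tested gene rows, with the mean of the 2 group means on the x axis (CPM, log axis) and the log2 fold change of DUX4 over luciferase on the y axis. Raised rows (5237) reach above 12 while lowered rows (4881) end near -6, and slanted lines of points at the upper left are rows with 0, 1 or a few luciferase reads; dotted lines mark 2-fold.

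The share of tested rows with large rises differed between levels of expression. Between a mean of 0 and 1 CPM, 46.0% of 1006 rows rose more than 2-fold and 9.64% fell that much. These shares depend on the filter, since a row this low is tested mainly where 1 group lifts it over the minimum. Between 1 and 10 CPM, 20.9% of 3644 rows rose and 8.01% fell by that much. Between 10 and 100 CPM the shares were 9.79% and 2.51% of 7055 rows, and between 100 and 1000 CPM they were 10.3% and 2.30% of 1824 rows. Above 1000 CPM the order turned, with 3 of 100 rows raised and 7 lowered more than 2-fold. In that class 33 rows were raised and 60 lowered at any size, with a median log2 fold change of -0.22. The classes differ in precision, since the median SE of the log2 fold change was 0.42 in the lowest class and 0.03 in the highest.

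Many rows moved little. For 6813 of the 13629 tested rows the 95% interval lay inside 1.5-fold in both directions, and 4143 of these were called all the same. Of the 3511 rows that were not called, 2670 had such an interval and 841 had a wider one, which does not exclude a change of 1.5-fold. Gene rows 9856, 4576 and 10737 had the smallest SEs among rows not called. Gene row 4576 held 31917, 29358 and 35153 reads with luciferase and 26715, 30753 and 25807 with DUX4. These are 1706 ± 3.87 and 1674 ± 14.0 CPM (SD, n = 3), and the log2 fold change was -0.04 with a 95% interval of -0.10 to 0.02. Its groups do not overlap, and edgeR gave an adjusted p of 0.154 where DESeq2 gave 0.0460. Gene row 9856 had means of 2460 ± 81.6 CPM for luciferase and 2457 ± 31.5 CPM for DUX4, and gene row 10737 had 1240 ± 9.70 and 1262 ± 16.2 CPM (SD, n = 3). Their groups overlap, with 95% intervals of the log2 fold change from -0.07 to 0.05 and from -0.05 to 0.07.

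With DUX4, gene counts were spread over more rows. The 100 most abundant rows of each library held 31.6%, 31.5% and 31.6% of gene counts in the luciferase libraries and 27.2%, 27.2% and 27.3% in the DUX4 libraries. The groups do not overlap, and the means were 31.6% ± 0.0495 and 27.2% ± 0.0833 (SD, n = 3). The first 50% of gene counts was reached with 448, 447 and 448 rows in luciferase and 602, 598 and 597 rows in DUX4 libraries. Rows at 1 CPM or more numbered 12157, 12110 and 12141 with luciferase and 12824, 12784 and 12816 with DUX4, a difference of 672 between the means. Each of these measures gave p = 0.1 in a 2-sided exact permutation test, the smallest that 3 against 3 libraries allow, and 0.108 after adjustment over 13 such tests. Rows at 1000 CPM or more numbered 102 to 107 with luciferase and 100 to 103 with DUX4, ranges that overlap, with an exact permutation p of 0.2.

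**Figure D2:**
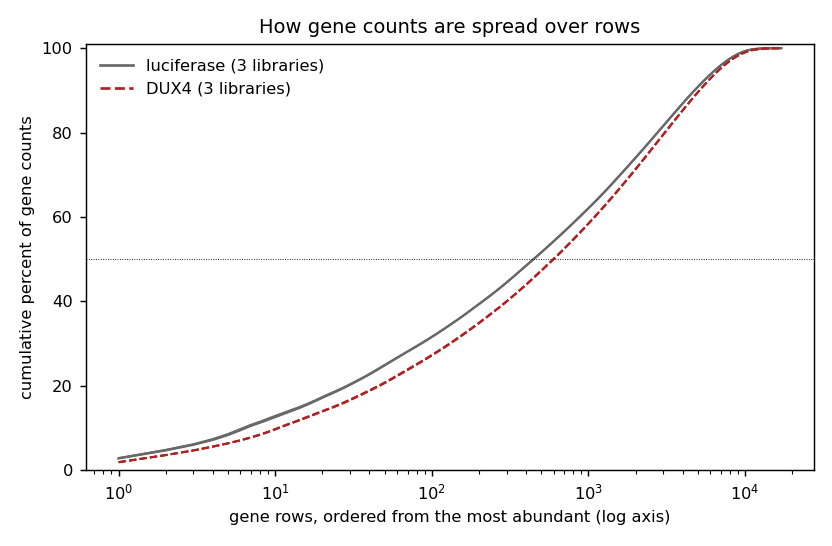
The cumulative percent of gene counts (y axis) is drawn against the number of gene rows, from the most abundant (x axis, log scale), for each of the 6 libraries. The 3 DUX4 lines (dashed) lie below the 3 luciferase lines through most of the range and reach the dotted line at 50% with 597 to 602 rows against 447 or 448.

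The raised rows took over a large part of the counts. Raised rows of any size held 27.3% ± 0.114 of gene counts with luciferase and 45.2% ± 0.0653 with DUX4 (SD, n = 3), values that describe the rows chosen and carry no test. Rows raised more than 2-fold went from 2.81% ± 0.0189 to 12.3% ± 0.0884 (SD, n = 3). The 239 rows whose estimated rise was more than 64-fold went from 0.00480% ± 0.000432 to 1.69% ± 0.0273 (SD, n = 3). By the interval or bound, 87 rows passed that fold. Of these 239 rows, 109 had no luciferase read in any library. With DUX4, 219 of them reached 1 CPM, 96 reached 10 CPM, 26 reached 100 CPM and 4 reached 1000 CPM. Rows raised more than 8-fold made up 23.4% of the CPM gained by all raised rows. The gain was spread out, with 170 rows for its first 50%, whereas 69 rows made up the first 50% of the CPM lost by lowered rows.

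Among the 100 rows with the most counts, 78 were the same in both groups. The 22 rows that entered with DUX4 were all called raised, and the 22 that left were all called lowered. Their directions follow largely from how they were picked. Of all tested gene rows 38.4% were raised and 35.8% lowered, and above 1000 CPM 33 of 100 were raised and 60 lowered. The rows that entered the first 100 had a median luciferase rank of 205, and 3 of them stood under 1 CPM with luciferase. Gene row 2647 went from rank 12704 to rank 48, and gene row 13347 from rank 12887 to rank 49. Gene row 4725 went from rank 1849 to rank 25. It held 1772, 1672 and 2061 reads with luciferase and 42442, 48296 and 41033 with DUX4. That is 97.3 ± 2.60 and 2650 ± 25.9 CPM (SD, n = 3), and the log2 fold change was 4.75 ± 0.04 (SE; adjusted p by edgeR 5.57e-112).

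The 10 largest rises took rows from below 1 CPM to between 54.9 and 1791 CPM. Gene row 2647 held 9, 11 and 14 reads in the luciferase libraries and 28141, 33269 and 27718 in the DUX4 libraries. Its mean went from 0.600 ± 0.104 to 1791 ± 19.9 CPM (SD, n = 3), and the log2 fold change was 11.51 ± 0.25 (SE; adjusted p by edgeR 2.68e-120). The groups lie far apart, and the 3 DUX4 libraries lie within a few percent of each other. Gene row 13347 held 8, 8 and 13 reads with luciferase and 27745, 33175 and 27488 with DUX4, a log2 fold change of 11.73 ± 0.27 (SE). Gene row 2663 held 2, 3 and 8 reads with luciferase and 15533, 19135 and 15178 with DUX4, a log2 fold change of 12.03 ± 0.40 (SE). Gene row 13826 held 2, 5 and 2 luciferase reads and 11560, 13411 and 10764 DUX4 reads. In each of these rows every luciferase library held some reads. Libraries were pooled 14 to a pool over 2 lanes. Whether such few reads belong to the luciferase libraries or to others of a pool was not tested, so the starting level is low but uncertain.

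Gene row 1722 went from 0.138 ± 0.0964 to 406.5 ± 8.18 CPM and gene row 9923 from 0.162 ± 0.0639 to 416.3 ± 17.3 CPM (SD, n = 3). The other 4 rows of the 10 had at most 2 luciferase reads in all, so their fold is poorly bounded from above. Gene row 13979 held 1, 0 and 0 luciferase reads and 1571, 1817 and 1558 DUX4 reads, a ratio of 5576 with a 95% exact Poisson interval of 1000 to 220272. Gene row 3419 held 1, 0 and 0 luciferase reads and 999, 1190 and 936 DUX4 reads. Its ratio was 3523, with an interval of 631.8 to 139189. Gene row 14381 held 1, 0 and 1 luciferase reads and 1732, 2038 and 1678 DUX4 reads. Its ratio was 3071, with an interval of 849.7 to 25363. Gene row 2046 held no luciferase read and 890, 969 and 868 DUX4 reads, at least 1025-fold higher against 3 reads over the luciferase group.

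**Figure D3:**
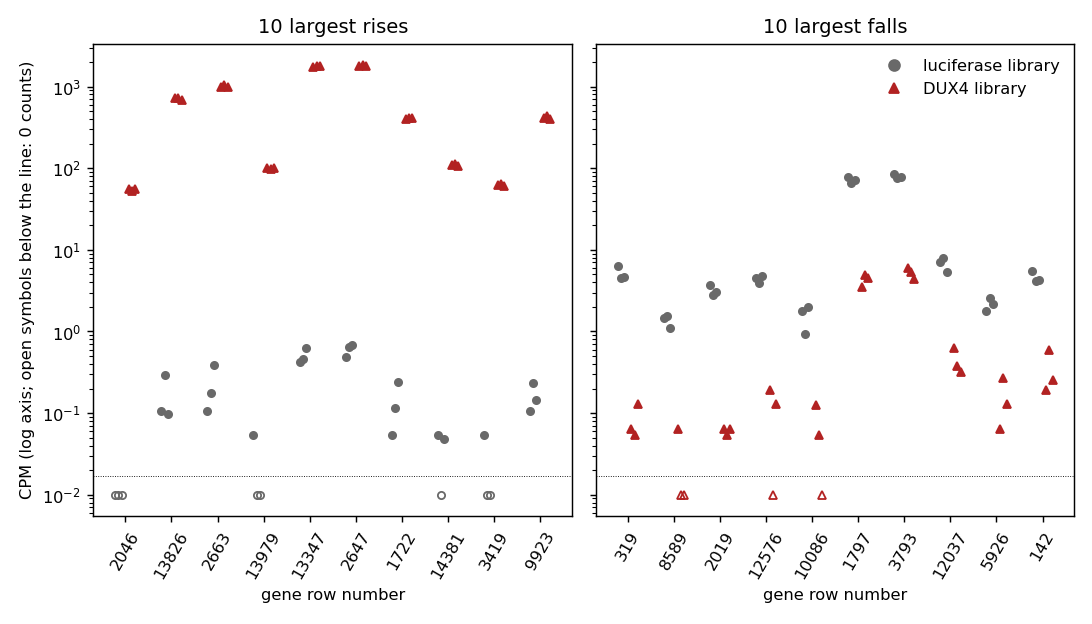
Levels in each library (CPM, log axis) are shown for the 10 largest rises (left) and the 10 largest falls (right), by gene row number, with circles for luciferase and triangles for DUX4 libraries; open symbols below the dotted line stand for 0 counts. Rows were picked among those whose groups do not overlap, so that separation is no result, and the rises span a wider range than the falls.

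Of these 10 rows, 6 could be joined to the tables of the other inserts through their luciferase counts, which need at least 7 luciferase reads. All 6 stood below 1 CPM with DUXC-ALT, an isoform of canine DUXC whose libraries carry the doxycycline tag, where levels ran from 0.0357 ± 0.0618 CPM in gene row 1722 to 0.592 ± 0.287 CPM in gene row 13347 (SD, n = 3). DUX4 was higher than DUXC-ALT in all 6 by a direct edgeR test, where 37.9% of 13157 joined rows were higher and 37.8% lower. For gene row 2647, whose DUXC-ALT libraries held 11, 17 and 1 reads, that log2 difference was 11.82 ± 0.42 (SE; adjusted p by edgeR 1.73e-15), with an SE of 0.70 in DESeq2. DUX4 was also higher than canine DUXC in all 6, in a test that called 33% of 13324 joined rows higher and 33.1% lower. The 6 rows were picked for their rise in these same DUX4 libraries, which favours this direction in both tests. Gene row 2647 stood at 643.7 ± 8.45 CPM and gene row 13347 at 511.2 ± 11.3 CPM with DUXC (SD, n = 3). The log2 differences of DUX4 over DUXC were 1.47 ± 0.03 and 1.79 ± 0.03 (SE). Gene row 9923 stood at 155.4 ± 3.99 CPM, gene row 13826 at 48.9 ± 1.36 CPM and gene row 1722 at 37.8 ± 1.02 CPM with DUXC (SD, n = 3). The row with the lowest DUXC level of the 6 was gene row 2663 at 20.6 ± 0.630 CPM (SD, n = 3), and the log2 difference was 5.60 ± 0.05 (SE; adjusted p by edgeR 3.48e-73).

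The 10 largest falls were smaller and of weakly expressed rows, 8 of which stood below 7 CPM with luciferase. The exceptions were gene rows 3793 and 1797. Gene row 3793 held 1576, 1313 and 1616 reads with luciferase and 95, 97 and 69 with DUX4. Its mean went from 79.7 ± 4.28 to 5.24 ± 0.782 CPM (SD, n = 3), and the log2 fold change was -3.93 ± 0.10 (SE; adjusted p by edgeR 2.86e-70). Gene row 1797 held 1474, 1142 and 1464 reads with luciferase and 56, 91 and 71 with DUX4, a log2 fold change of -4.05 ± 0.11 (SE; adjusted p by edgeR 1.02e-46). The groups lie far apart in both rows.

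Both rows were also lower with DUX4 than with the other canine inserts, a direction favoured by their choice for a fall in these same DUX4 libraries. Their DUXC means were 112.5 ± 4.26 CPM for gene row 3793 and 25.0 ± 1.24 CPM for gene row 1797, and their DUXC-ALT means were 41.1 ± 0.614 and 14.9 ± 1.06 CPM (SD, n = 3). The log2 difference of DUX4 from DUXC-ALT was -2.89 ± 0.10 for gene row 3793 and -1.68 ± 0.12 for gene row 1797 (SE; adjusted p by edgeR 7.70e-100 and 4.24e-36). Gene row 142 fell from 104, 71 and 89 reads to 3, 11 and 4. The means were 4.67 ± 0.787 CPM for luciferase and 4.70 ± 0.642 for DUXC, against 1.70 ± 0.280 for DUXC-ALT and 0.349 ± 0.220 for DUX4 (SD, n = 3).

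Another 5 of the 10 falls were rows that were nearly empty in every group with the doxycycline tag. Gene row 319 held 117, 77 and 95 reads with luciferase and 1, 1 and 2 with DUX4, and it had 4 reads over the DUXC and 1 over the DUXC-ALT libraries. Gene row 2019 held 70, 48 and 63 reads with luciferase and 1 in each DUX4 library, with 2 over DUXC and 5 over DUXC-ALT. Its ratio of DUX4 to luciferase was 0.0187, with a 95% exact Poisson interval of 0.00382 to 0.0555. Gene row 12037 held 133, 138 and 110 reads with luciferase and 10, 7 and 5 with DUX4, more than the 2 reads over DUXC and 2 over DUXC-ALT. Gene row 5926 held 33, 44 and 45 reads with luciferase and 1, 5 and 2 with DUX4, with 3 over DUXC and 0 over DUXC-ALT. Gene row 8589 held 27, 27 and 23 reads with luciferase and 1, 0 and 0 with DUX4, with 0 over DUXC and 1 over DUXC-ALT. These comparisons share the luciferase libraries, and for these 5 rows the insert, the drug and the state of the luciferase line cannot be told apart.

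The last 2 falls lay between these patterns. Gene row 12576 held 84, 68 and 99 reads with luciferase and 3, 0 and 2 with DUX4, against 67 over DUXC and 35 over DUXC-ALT. Gene row 10086 held 33, 16 and 41 reads with luciferase and 2, 1 and 0 with DUX4, against 23 over DUXC and 19 over DUXC-ALT. Over the 615 rows lowered more than 2-fold, all of which could be joined, the median levels of luciferase, DUX4, DUXC and DUXC-ALT were 7.85, 2.91, 4.95 and 4.76 CPM. Over all 13268 joined rows among those tested, they were 20.9, 22.9, 22.8 and 22.0 CPM in the same order. The 615 rows were chosen for their fall from luciferase to DUX4, so the order of those medians is no result. That choice also favours levels in between for the other inserts.

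The largest losses in counts came from the most abundant rows, and their folds were moderate. Gene row 8874, the first of all rows with luciferase, stood at 28444, 27204 and 28537 CPM there and at 11092, 10865 and 10859 CPM with DUX4. The log2 fold change was -1.37 ± 0.03 (SE; adjusted p by edgeR 6.11e-76), and the row moved from rank 1 to rank 3. Gene row 10521 stood at 13430, 13307 and 13210 CPM with luciferase and at 4665, 4522 and 4647 CPM with DUX4. Its log2 fold change was -1.54 ± 0.03 (SE), and it moved from rank 3 to rank 14. The groups are apart in both rows, by far more than the spread within either group. Gene row 9164 went from 11696 ± 240.9 to 5118 ± 41.4 CPM, gene row 1326 from 11826 ± 391.6 to 6448 ± 102.7 CPM and gene row 2787 from 10286 ± 177.2 to 6988 ± 1.74 CPM (SD, n = 3). Together the 5 rows changed by -41080 CPM.

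In 4 of these 5 rows DUXC-ALT lay between DUX4 and luciferase. Gene row 8874 had means of 19440 ± 147.3 CPM for DUXC-ALT and 18976 ± 105.6 for DUXC, and gene row 10521 had 7375 ± 151.9 and 8532 ± 161.3 CPM (SD, n = 3). Gene row 9164 stood at 6186 ± 53.4 CPM and gene row 1326 at 7744 ± 92.7 CPM with DUXC-ALT (SD, n = 3), where the log2 difference of DUX4 from DUXC-ALT was -0.19 ± 0.03 and -0.18 ± 0.03 (SE). Gene row 2787 stood at 11064 ± 55.2 CPM with DUXC-ALT, above luciferase, and at 6594 ± 152.1 CPM with DUXC, below DUX4 (SD, n = 3). All 5 rows were lower with DUX4 than with DUXC-ALT in the direct edgeR test, a direction favoured by their choice as the largest losses.

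The largest gain was that of gene row 12878, at 11773, 11443 and 11463 CPM with luciferase and 18462, 18688 and 19063 CPM with DUX4. It moved from rank 6 to rank 1, with a log2 fold change of 0.69 ± 0.03 (SE; adjusted p by edgeR 7.95e-50). Gene row 12879 went from 4537 ± 85.1 to 6896 ± 325.003 CPM, gene row 12881 from 4012 ± 132.5 to 6159 ± 103.8 CPM and gene row 12882 from 4159 ± 57.7 to 6325 ± 75.4 CPM (SD, n = 3). So 4 of the 5 largest gains sat within 5 rows of the table and had log2 fold changes of 0.59 to 0.69. The other was gene row 4725. In all 5 rows, both canine inserts had means above luciferase and below DUX4. Gene row 12878 averaged 14165 ± 200.2 CPM under DUXC-ALT, against 15604 ± 411.3 CPM under DUXC (SD, n = 3). The averages of gene row 12881 were 5131 ± 53.3 and 4808 ± 105.0 CPM in that order (SD, n = 3). In those 4 rows DUX4 exceeded DUXC-ALT by 0.34 to 0.50 on the log2 scale, a direction favoured by their choice. Whether the canine inserts differed from luciferase was not tested. Gene row 9149, the second most abundant row in both groups, moved from 19255 ± 354.6 to 16941 ± 99.6 CPM (SD, n = 3), with a log2 fold change of -0.20 ± 0.03 (SE; adjusted p by edgeR 1.34e-13). Against DUXC-ALT, at 10678 ± 78.5 CPM (SD, n = 3), this row was higher with DUX4 by 0.75 ± 0.03 on the log2 scale (SE), so its direction depends on the group it is set against.

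Repeat rows rose as a body relative to genes. Reads in repeats numbered 3.46, 3.47 and 3.54 per 100 gene counts in the luciferase libraries and 6.81, 6.68 and 7.33 in the DUX4 libraries. The groups do not overlap, and DUX4 stood at 1.99 times the luciferase mean (exact permutation p = 0.1, the smallest possible; 0.108 after adjustment). With effective library sizes taken from genes, edgeR raised 564 of 617 tested repeat rows, a share of 91.4%, and lowered 7, a share of 1.13%, so that 92.5% were called. Of these rows, 392, or 63.5%, rose more than 2-fold and 1, or 0.162%, fell by that much. The rises thinned out quickly with size, with 111 rows past 4-fold, 32 past 8-fold, 18 past 16-fold and 9 past 64-fold. All these directions are relative to genes: with scaling on the repeats themselves, the median of repeat rows moved down by 1.18 on the log2 scale, and 215 rows were raised and 207 lowered.

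**Figure D4:**
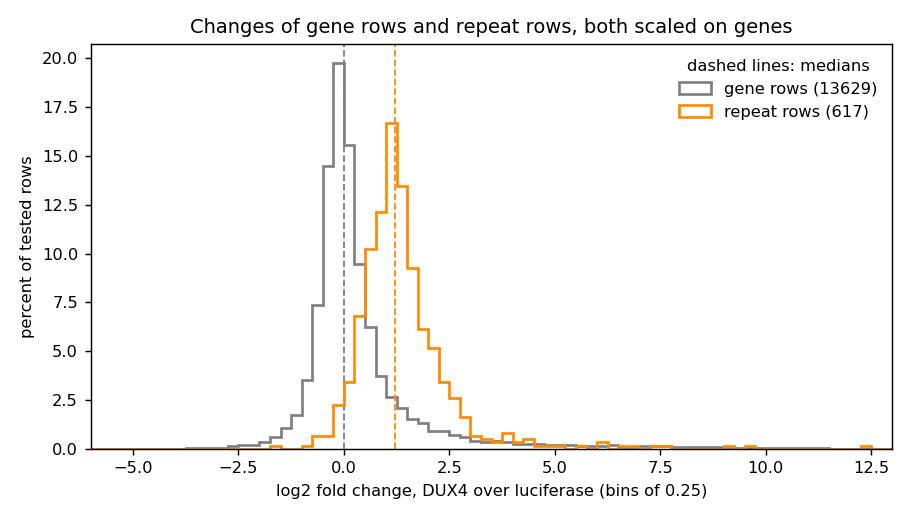
Percent of tested rows (y axis) by log2 fold change of DUX4 over luciferase (x axis, bins of 0.25) for 13629 gene rows and 617 repeat rows, both scaled on gene counts. The dashed medians stand near 0 for genes, which scaling on genes favours, and at 1.21 for repeats, and both distributions have a long tail of large rises.

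The medians of repeat rows were above 1 on the log2 scale at every level of abundance, with the lowest level again subject to the filter. The median log2 fold change of repeat rows was 1.29 below 1 CPM, 1.31 from 1 to 10 CPM, 1.09 from 10 to 100 CPM and 1.14 above 100 CPM. The matching medians of gene rows were 0.79, 0.06, -0.01 and -0.08, the last from 100 to 1000 CPM. Among the 65 repeat rows above 100 CPM, 64 were raised and 0 lowered. Repeat rows at 1 CPM or more numbered 478, 475 and 480 with luciferase and 591, 584 and 592 with DUX4.

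A single row dominated the repeat counts and rose less than most. Repeat row 335 stood at 15160, 15521 and 15979 CPM with luciferase and at 20291, 21144 and 26040 CPM with DUX4. The groups do not overlap, but DUX4 replicate 3 stands above the other 2 DUX4 libraries. The log2 fold change was 0.52 ± 0.05 (SE; adjusted p by edgeR 3.44e-18), with an SE of 0.12 in DESeq2, and it turned to -0.66 with scaling on the repeats. The row held 44.6% ± 0.662 of repeat counts with luciferase and 32.3% ± 2.92 with DUX4 (SD, n = 3). With that row left out, luciferase libraries held 1.94 ± 0.0144 and DUX4 libraries 4.70 ± 0.111 repeat reads per 100 gene counts (SD, n = 3), a ratio of 2.43. In the other inserts it had means of 18104 ± 3992 for DUXC and 12200.3 ± 2841 CPM for DUXC-ALT (SD, n = 3), where replicates spread widely.

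The next most abundant repeat rows rose further. Repeat row 234 stood at 803.0, 786.1 and 818.9 CPM with luciferase and at 3455, 3244 and 3287 CPM with DUX4, a log2 fold change of 2.04 ± 0.04 (SE). Repeat row 242 stood at 226.0, 220.9 and 223.6 CPM with luciferase and at 1600, 1536 and 1542 CPM with DUX4, a log2 fold change of 2.79 ± 0.04 (SE). Both kept their direction with scaling on the repeats. Repeat row 655 went from 844.0 ± 61.8 to 2252 ± 177.6 CPM and repeat row 324 from 871.5 ± 10.9 to 1964 ± 66.1 CPM (SD, n = 3). Repeat row 660 went from 1020 ± 85.3 to 1763 ± 99.99 CPM (SD, n = 3). With luciferase, the level of repeat row 655 lay within its spread of repeat rows 234 and 324. With scaling on the repeats, rows 324 and 660 turned to log2 fold changes of -0.02 and -0.40. The first 50% of the gain in repeat CPM came from 12 rows, of which repeat row 335 alone gained 6938 CPM.

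Against DUXC-ALT, where the doxycycline tag is shared, DUX4 called 91.4% of 608 joined repeat rows higher and 0.822% lower. Repeat row 234 stood at 792.8 ± 13.2 CPM with DUXC-ALT (SD, n = 3). DUX4 was higher by 2.15 ± 0.06 (SE) on the log2 scale, and the difference of repeat row 242 was 3.04 ± 0.06 (SE). Against DUXC, 54.3% of 619 joined repeat rows were higher with DUX4 and 7.43% lower. Repeat row 242 stood at 1539 ± 37.9 CPM with DUXC (SD, n = 3). Its log2 difference from DUX4 was 0.01 ± 0.06 (SE; adjusted p by edgeR 0.814). For repeat row 234, at 3004 ± 96.4 CPM with DUXC (SD, n = 3), the difference was 0.14 ± 0.06 (SE; adjusted p by edgeR 0.00357).

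**Figure D5:**
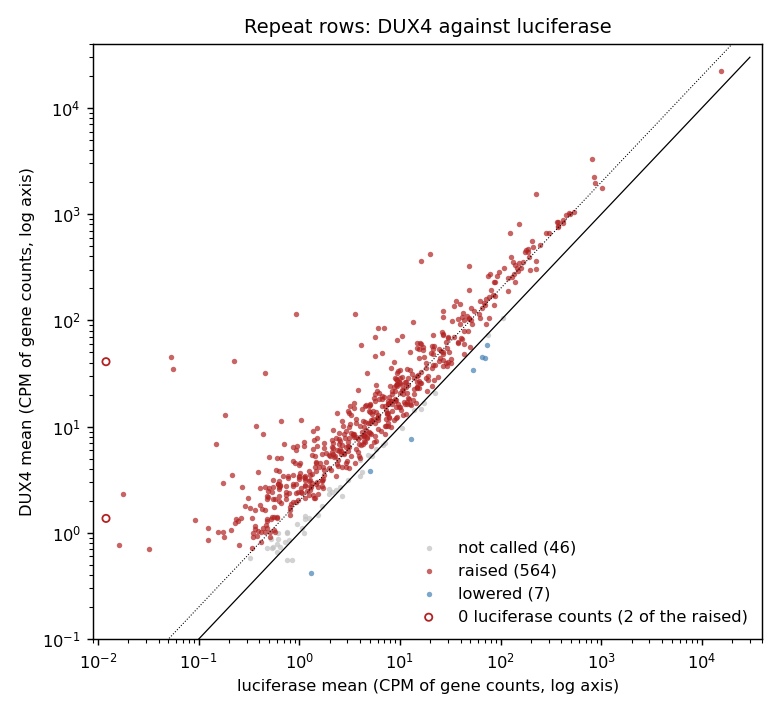
Each point is 1 of 617 tested repeat rows, with the luciferase mean on the x axis and the DUX4 mean on the y axis (CPM of gene counts, log axes); the solid line marks equal levels and the dotted line 2-fold. Most rows lie along the dotted line, 7 lowered rows lie below the solid line, and a small set of rows under 1 CPM with luciferase stands far above both.

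The largest rises were of repeat rows that were almost silent with luciferase. Repeat row 97 held 28, 10 and 15 reads with luciferase and 1916, 1942 and 1804 with DUX4. Its mean went from 0.936 ± 0.494 to 114.3 ± 7.70 CPM (SD, n = 3), and the log2 fold change was 6.91 ± 0.21 (SE). Repeat row 139 held 6, 1 and 6 reads with luciferase and 637, 780 and 651 with DUX4, a log2 fold change of 7.44 ± 0.40 (SE). Repeat row 147 held 9, 10 and 6 reads with luciferase and 534, 552 and 506 with DUX4, a log2 fold change of 6.14 ± 0.29 (SE). In these 3 rows the groups lie far apart.

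These 3 rows could be joined, and all were higher with DUX4 than with either canine insert. They were picked for their rise in these same DUX4 libraries, which favours this direction. For repeat row 97 the means were 4.76 ± 0.905 CPM for DUXC and 0.943 ± 0.150 CPM for DUXC-ALT (SD, n = 3). Its log2 difference of DUX4 over DUXC was 4.57 ± 0.11 (SE; adjusted p by edgeR 7.94e-59). Repeat row 139 stood at 1.15 ± 0.0619 and 0.411 ± 0.108 CPM, and repeat row 147 at 1.39 ± 0.483 and 0.263 ± 0.133 CPM, with DUXC and DUXC-ALT in that order (SD, n = 3). Their log2 differences of DUX4 over DUXC were 5.16 ± 0.19 and 4.49 ± 0.18 (SE).

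The other 5 of the 8 largest repeat rises had at most 3 luciferase reads and could not be joined. Repeat row 245 held 2, 1 and 0 luciferase reads and 527, 699 and 520 DUX4 reads, a ratio of 656.1 with a 95% exact Poisson interval of 224.1 to 3185. Repeat row 5 held 3, 0 and 0 luciferase reads and 620, 912 and 752 DUX4 reads, and repeat row 35 held 0 luciferase reads and 656, 730 and 644 DUX4 reads. Repeat rows 7 and 637 were weak even with DUX4, at 2.34 ± 0.261 and 1.37 ± 0.531 CPM (SD, n = 3). Repeat row 637 had no luciferase read and was at least 25.2-fold higher, and repeat row 7 had 1.

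Of the 7 repeat rows that fell, 6 did so by less than 2-fold. Repeat row 480 held 1274, 1213 and 1519 reads with luciferase and 700, 774 and 741 with DUX4, or 70.8 ± 2.79 and 44.7 ± 2.75 CPM (SD, n = 3). The log2 fold change was -0.68 ± 0.06 (SE; adjusted p by edgeR 1.45e-31). Repeat row 633 went from 12.9 ± 0.268 to 7.61 ± 0.312 CPM and repeat row 67 from 53.3 ± 2.68 to 34.4 ± 0.355 CPM (SD, n = 3). Repeat rows 465 and 454 had log2 fold changes of -0.52 ± 0.06 and -0.35 ± 0.05 (SE). Repeat row 80 held 26, 23 and 24 reads with luciferase and 6, 8 and 7 with DUX4, and was the row that fell more than 2-fold. The groups do not overlap in any of the 7 rows, as in 565 of all 571 called repeat rows. But the call of repeat row 260 (edgeR adjusted p = 0.0073) was lost with DESeq2, at an adjusted p of 0.0534, and without DUX4 replicate 2, at 0.0875.

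For 4 of these 7 rows, picked for their fall with DUX4, a fall was also seen against DUXC-ALT. The log2 differences of DUX4 from DUXC-ALT were -0.44 ± 0.11 for repeat row 633, -0.32 ± 0.05 for repeat row 465, -0.16 ± 0.05 for repeat row 454 and -0.15 ± 0.05 for repeat row 480 (SE). Repeat rows 67 and 260 differed from DUXC-ALT by -0.01 ± 0.06 and -0.03 ± 0.16 (SE), with edgeR adjusted p of 0.823 and 0.836. Repeat row 80 held too few reads to be tested there, at 0.549 ± 0.0947 CPM with DUXC-ALT (SD, n = 3). Among repeat rows not called, repeat row 191 had the smallest SE, with 2044, 1836 and 2115 reads with luciferase and 1813, 1887 and 1549 with DUX4. Its groups overlap, with a 95% interval of the log2 fold change from -0.11 to 0.08.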

How the data were processed

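RNA was measured as read counts, in 6 libraries for the main comparison and in those of DUXC and DUXC-ALT for the side comparisons. The authors deposited raw counts per gene row and per repeat row as whole numbers, with 1 column per library, per the file headers, and no row names. The submitters' processing notes list, without saying what each did, the build canFam3 and the tools CASAVA, DESeq2, Bowtie2 2.2.6 and TopHat2 2.1.0. How reads were counted, and how strand and reads with several matches were treated, is not given in the sources used here, so rows of near-identical genes or repeats may share reads. Rows with fewer than 7 reads over the 6 libraries were absent from the tables. The authors' normalized tables were not used here.

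Groups came from the genotype tag. The test of counts was that of edgeR 4.0.16 under R 4.3.3 (TMM, filterByExpr, robust quasi-likelihood fit, Benjamini-Hochberg at 0.05), and repeats with the effective gene library sizes of the same libraries. SEs are Wald errors from the information of that fit times its quasi-dispersion, which was kept at 1 or above so that no SE falls below counting error, and 95% intervals use them. They can be wider than the edgeR p-value alone would give. Single values per library were compared by exact permutation. A group with 0 reads was set at 3 reads, and groups with 1 to 3 reads got an exact Poisson interval, for counting error alone. Tables of the other inserts were joined through identical luciferase counts in the same order, for rows with at least 7 luciferase reads: 14736 gene rows, 13106 of them with a combination found once. Replicate numbers did not pair the libraries. The test was also run on simulated data in which most rows did not change, which does not cover changes in most rows as seen here.

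Members and lists were chosen with earlier results of these data known. Named gene rows were the 10 largest rises and falls among called rows with no overlap and at least 1 CPM in the higher group, the 5 largest gains and losses in CPM, the 5 most abundant rows, and the 3 uncalled rows with the smallest SE. Named repeat rows were the 8 largest rises, the 7 falls, the 6 most abundant and 3 uncalled, with at least 20 counts in the higher group for rises and falls. Alternatives were DESeq2 1.42.0, other scalings and filters, a test against 2-fold, a replicate block and leaving out each library.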

Additional observations from a re-analysis of the deposited data

How the results depend on the processing

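Counts of called gene and repeat rows stayed within 1.5 times under DESeq2, other gene-based scalings, a filter at 1 CPM and the left-out libraries, except as follows. Without a filter on low counts 3234 gene rows rose more than 2-fold, over 17070 rows in place of 13629. A test against a fold of 2 gave 357 falls and 1710 rises past 2-fold. Scaling on the repeats gave 215 raised and 207 lowered repeat rows, moving the raised share of calls from 98.8% to 50.9%, and 161 rows called in both fits changed direction. Named rows that turned were repeat rows 335 (-0.66), 324 (-0.0198) and 660 (-0.40). Without repeat row 335 the ratio of repeat counts was 2.43. The share of the 1000 most abundant rows differed by -3.63 percentage points, and rows at 10 CPM or more differed by 309.7. Leaving out each library gave 5045 to 5271 raised and 4626 to 4873 lowered gene rows, 2135 to 2304 and 628 to 671 past 2-fold, 560 to 564 raised and 7 to 10 lowered repeat rows, ratios of 1.93 to 2.03, differences of -4.39 to -4.31 percentage points in the 100 most abundant rows, and 659 to 684 rows at 1 CPM. With the replicate number as a block, 5236 gene rows were raised and 4887 lowered, and 565 and 7 repeat rows. Same-numbered libraries did not deviate together (correlations of -0.01 to 0.01), so the numbers are not taken as pairs. DESeq2 on the joined gene rows, added after seeing the data, gave the same direction and side of the threshold in all 47 comparisons of named gene rows. Rows of few reads set the limit of depth, with a median SE of 0.42 below 1 CPM.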

Other observations

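The 4 gains in gene rows 12878 to 12882 led to a look at their neighbours, chosen after their values were seen. The 15 consecutive rows from 12874 to 12888 each held at least 100 CPM in every library, with luciferase ranks from 6 to 794. All 15 were raised by edgeR, with log2 fold changes from 0.44 to 1.38 and a median of 0.61. The 4 largest gains among them were raised by choice. Of all tested gene rows 38.4% were raised, with 37.2% from 100 to 1000 CPM and 33 of 100 rows above 1000 CPM. Together the 15 rows held 3.80%, 3.74% and 3.85% of gene counts with luciferase and 5.84%, 5.88% and 6.02% with DUX4, and the groups do not overlap. Gene row 12880 rose from 658.4 ± 50.3 to 940.0 ± 48.8 CPM and gene row 12874 from 206.2 ± 11.5 to 538.9 ± 12.6 CPM (SD, n = 3). The order of rows is not explained in the sources used here, and rows next to each other may share reads.

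Across the table, gene rows that changed more than 2-fold in the same direction were not much more often neighbours than others. Smaller rises, such as most of those in the run above, were not looked at in this way. Of the gene rows raised more than 2-fold whose next row was tested, 17.3% were followed by another such row, against 15.4% of all tested rows. For rows raised more than 8-fold the shares were 5.89% and 4.82%, and for rows lowered more than 2-fold 4.62% and 4.51%. For repeat rows raised more than 2-fold they were 72.8% and 63.5%. These shares are descriptions without a test.

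The spread within groups, taken in common over the tested rows, was smaller with DUX4 for repeats too. It was 3.20% against 4.58% with luciferase as coefficients of variation beyond sampling noise. The most abundant repeat row, 335, went the other way, with an SD of 3102 CPM with DUX4 and 410.7 CPM with luciferase. So did repeat counts per 100 gene counts, with an SD of 0.344 with DUX4 and 0.0447 with luciferase (n = 3). Over 443 gene rows raised more than 8-fold and at 1 CPM or more, the median deviation of a DUX4 library from its group mean was -0.0126, 0.0160 and -0.00243 on the log2 scale, so no DUX4 library stood apart in how strongly these rows were induced.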
